A study of Mus musculus with 2 samples.

Results

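Neutrophil granule protein genes were examined for DNA methylation in blood of mice whose kidney proximal tubules express I-PpoI, an endonuclease that cuts both strands of DNA. The 10 genes Mpo, Elane, Prtn3, Ctsg, Camp, Ngp, Ltf, Lcn2, Mmp8 and Mmp9 were taken with 5 kb on either side, and 551 CpG cytosines there were listed in both libraries with at least 10 reads, out of 3030488 shared cytosines on the autosomes and X. Reduced representation bisulfite sequencing (RRBS) was run on genomic DNA of peripheral blood cells: MspI cuts DNA at CCGG, and bisulfite converts unmethylated but not methylated cytosines. There was 1 library from wild-type (WT) blood and 1 from I-PpoI blood. The transgene is labelled as specific to the proximal tubule, so blood cells are not its labelled site of expression. No strain, age or number of animals per library is given in the sources used here.

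Neutrophils store microbe-killing proteins in granules that are filled in order while the cell matures in the bone marrow. Azurophil (primary) granules form at the promyelocyte stage and hold myeloperoxidase and serine proteases. Specific (secondary) granules form at the myelocyte stage and hold lactoferrin, cathelicidin and lipocalin, and gelatinase (tertiary) granules follow. The genes are transcribed in these precursors, and CpGs at genes of a blood lineage are as a rule less methylated in cells of that lineage than in others.

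Promoters of 9 members, the 250 bp before the gene start, were held by the RefSeq promoter table (GRCm38.p6). They contained 2 to 7 CpGs each. For Mmp9 no promoter is shown. The 4 promoters of the azurophil genes are shown because 2 of these genes, Mpo and Ctsg, were called lower in I-PpoI. Elane and Prtn3 were not called. These 4 promoters hold no measured cytosine. The letters AGGAAGT, which match sites of the myeloid factor PU.1, occur in each of the 4. Of the other genes called lower, Mmp8 also has these letters and Camp does not. Capitals mark these letters, and each sequence reads 5′ to 3′ on the strand of the gene.
Mpo, chr11:87793534-87793783, plus strand: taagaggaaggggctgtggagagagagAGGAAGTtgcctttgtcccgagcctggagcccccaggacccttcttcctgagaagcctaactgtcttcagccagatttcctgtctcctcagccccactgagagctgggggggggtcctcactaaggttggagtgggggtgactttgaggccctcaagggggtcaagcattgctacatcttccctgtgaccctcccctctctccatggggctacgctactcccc
Elane, chr10:79886062-79886311, plus strand: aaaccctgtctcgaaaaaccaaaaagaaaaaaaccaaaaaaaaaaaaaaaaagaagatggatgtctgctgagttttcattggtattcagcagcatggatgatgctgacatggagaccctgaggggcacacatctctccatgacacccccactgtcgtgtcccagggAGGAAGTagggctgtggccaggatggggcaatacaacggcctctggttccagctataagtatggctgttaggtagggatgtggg
Prtn3, chr10:79879417-79879666, plus strand: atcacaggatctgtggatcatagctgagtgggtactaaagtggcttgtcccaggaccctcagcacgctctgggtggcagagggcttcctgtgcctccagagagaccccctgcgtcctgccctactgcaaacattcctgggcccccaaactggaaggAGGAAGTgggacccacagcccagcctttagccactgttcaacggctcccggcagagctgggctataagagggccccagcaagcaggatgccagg
Ctsg, chr14:56102575-56102824, minus strand: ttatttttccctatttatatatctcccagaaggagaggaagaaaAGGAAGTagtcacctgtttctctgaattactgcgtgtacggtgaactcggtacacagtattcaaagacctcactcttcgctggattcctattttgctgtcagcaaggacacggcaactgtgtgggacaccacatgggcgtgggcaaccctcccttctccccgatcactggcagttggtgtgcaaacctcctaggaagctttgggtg

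AGGAAGT stood 223 bp before the start in Mpo, 84 bp in Elane, 94 bp in Prtn3 and 206 bp in Ctsg, each on the strand of the gene, and in Mmp8 it stood 221 bp before the start on the other strand. It was absent from the windows of Camp, Ngp, Ltf and Lcn2. Over both strands it was found in 7.72% of 32609 promoter windows of that length. The letters TTNNGNAA, which match sites of C/EBP factors and overlap no AGGAAGT, occurred 3 times in Ngp, 2 times each in Ltf and Mmp8 and 1 time in Lcn2, and in 36.9% of all windows. They were absent from the windows of the 4 azurophil genes and of Camp, a specific granule gene. TGTGGT, the core letters of Runx sites, occurred in Ctsg alone among the members and in 14% of all windows. The motifs were chosen with the sequences in view, and a match is a description of letters.

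The measured cytosines mostly lay outside these windows. The promoters with measured cytosines were those of Ngp (1 cytosine) and Ltf (4 cytosines). Capitals mark every CpG in these sequences.
Ngp, chr9:110419558-110419807, plus strand: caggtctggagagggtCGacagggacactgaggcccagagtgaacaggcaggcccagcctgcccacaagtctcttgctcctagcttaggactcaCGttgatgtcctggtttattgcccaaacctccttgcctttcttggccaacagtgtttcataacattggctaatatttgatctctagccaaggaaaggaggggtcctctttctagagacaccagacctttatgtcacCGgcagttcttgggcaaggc
Ltf, chr9:111019042-111019291, plus strand: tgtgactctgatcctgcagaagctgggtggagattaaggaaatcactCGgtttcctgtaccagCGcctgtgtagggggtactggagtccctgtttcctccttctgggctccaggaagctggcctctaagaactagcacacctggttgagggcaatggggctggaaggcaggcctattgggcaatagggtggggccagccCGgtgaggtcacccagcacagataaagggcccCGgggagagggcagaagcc

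In Ltf the measured CpGs at -51 and -19 bp from the gene start both lie in CCGG. The WT level of the forward cytosine at -51 bp was 6.98% and its I-PpoI level 8.33%. Its reverse-strand partner was at 94.1% and 75%. At -19 bp the forward cytosine was at 100% and 95% and its reverse partner at 0% and 8%. Opposite strands at such cut sites thus gave opposite levels in both libraries. In all promoter windows together, 45.4% of 27986 measured CpG pairs in CCGG had strands at least 50 points apart in both libraries, against 0.00247% of 161738 other pairs. Among the members, 28 of 551 cytosines were of this kind, and only those in the 223 pairs listed on both strands could be. The 28 were at Prtn3, Elane, Ltf, Lcn2 and Mmp9, and none was at Mpo, Ctsg, Camp, Ngp or Mmp8. The 6 cytosines at the Ngp start had no listed partner. Strands as far apart in 1 library alone did occur at called genes. In I-PpoI the forward and reverse cytosines of a CpG were at 33.3% and 100% at Ctsg (chr14:56100691) and at 100% and 46.7% at Camp (chr9:109848009). In WT they were at 39.5% and 90.2% at Mpo (chr11:87801152).

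All 10 granule gene regions had a lower mean level in I-PpoI than in WT, as did 81.1% of all 35571 gene regions, and the amounts were unlike. Mmp8, Camp, Mpo and Ctsg were lower by 34.6, 26.4, 22.2 and 21.3 percentage points, while Elane, Prtn3, Mmp9, Ltf, Lcn2 and Ngp differed by -4.55, -3.26, -2.30, -2.28, -1.24 and -0.0325 points. Each cytosine was weighted equally. A region was called when a Cochran-Mantel-Haenszel (CMH) chi-square test, which compares each cytosine with itself in the other library, gave an adjusted p under 0.01 over all genes and the mean difference was at least 10 points. The adjusted p of Elane, Prtn3, Mmp9, Ltf and Lcn2 lay between 1.3e-09 and 0.000177 in the CMH chi-square test, but their differences were short of 10 points. By this rule 4 of 10 members were called lower and none higher, where 2.6% of 35571 gene regions were called lower and 0.222% higher. Of members at 50% or more in WT, a bound chosen after the values were seen, 4 of 7 were called, against 4.97% of 16666 such regions. Regions that start high and hold few cytosines were called more often, 6.9% of 9833 with 3 to 20 cytosines.

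The median difference of the 10 members was -3.91 points, against -1.14 points over all genes and -1.87 points over genes at 50% or more in WT. Differences of -20 points or lower were found in 4 members and in 0.509% of all regions. With 1 library per group there is no replicate, and the tests compare these libraries, not the genotypes. In blood, a shift in the share of cells of a type and a change of methylation within a cell cannot be told apart. Read counts carry counting error alone, and cytosines on the same reads are not independent of each other.

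**Figure D1:**
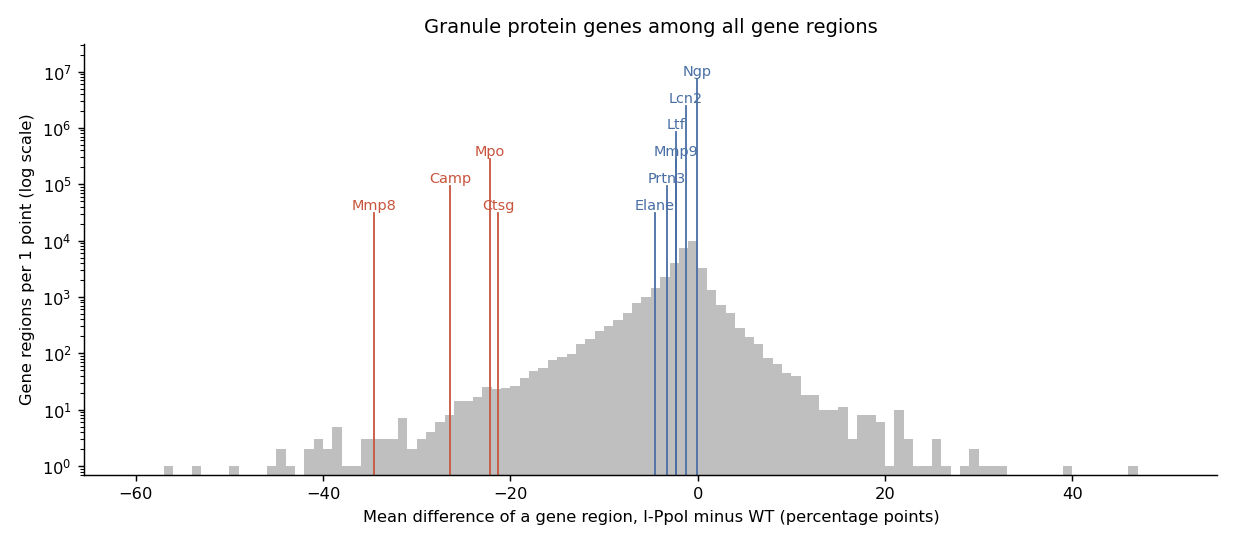
Grey bars count gene regions (log axis) by their mean difference, I-PpoI minus WT, in percentage points; vertical lines mark the 10 granule genes, red for those called lower and blue for the rest, and the heights of the lines carry no value. Mmp8, Camp, Mpo and Ctsg lie between -34.6 and -21.3 points, apart from the other 6 at -4.55 points and above.

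Cytosine by cytosine, 294 of the 551 were lower in I-PpoI, 152 higher and 105 equal. Calls of single cytosines asked for a difference of at least 25 points and, in Fisher's exact test, an adjusted p under 0.01 over all shared cytosines. Called lower were 17 member cytosines (3.09%), none was called higher, and over all shared cytosines 0.437% were called lower and 0.0594% higher. All 17 were at 50% or more in WT, where they made up 6.42% of 265 member cytosines, against 0.98% of all such cytosines. Mpo, Ctsg, Camp and Mmp8 held 12 of the 17 among 75 cytosines, and the other 6 genes held 5 among 476. Coverage of member cytosines ran from 10 to 215 reads in WT (median 47) and from 10 to 193 in I-PpoI (median 32).

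**Figure D2:**
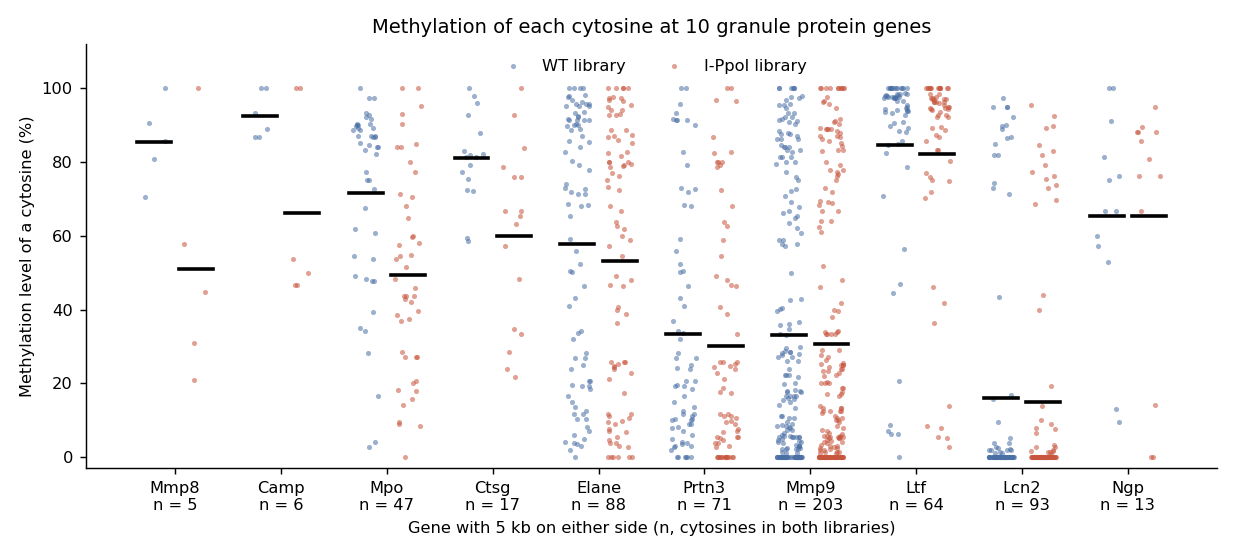
Each point is the methylation level (%) of 1 cytosine in the WT (blue) or I-PpoI (red) library, by gene in order of the mean difference, and black bars are means over the cytosines. The bars part at Mmp8, Camp, Mpo and Ctsg, whose WT means of 71.5% to 92.6% compare with 49.4% to 66.2% in I-PpoI.

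Mpo encodes myeloperoxidase, the azurophil enzyme that makes hypochlorous acid. Its 47 shared cytosines, 45 of them inside the gene, ran from 2.70% to 100% in WT with a median of 84.2%, and from 0% to 100% in I-PpoI with a median of 45.8%. The mean level was 71.5% against 49.4%, a difference of -22.2 ± 17.6 points (SD over 47 cytosines; CMH chi-square test, adjusted p = 2.6e-56). The levels of the libraries overlapped, but 40 cytosines were lower in I-PpoI, 6 higher and 1 equal. Pooled over 2658 and 1424 reads, the level was 75.5% (95% Wilson interval 73.9 to 77.1) and 52.7% (50.1 to 55.3).

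The difference varied along Mpo. Stretches of cytosines were separated where the gap exceeded 300 bp. The stretch 7258 to 7430 bp from the start (chr11:87801042-87801214) was lower at 16 of 16 cytosines, with means of 73.0% and 37.9%. There the WT mean of the 8 forward cytosines was 57.7% and the I-PpoI mean 30.2%. For the 8 reverse ones these were 88.4% and 45.7%, so both strands were lower from unlike starting levels. The stretch of 20 cytosines at 6104 to 6493 bp averaged 63.9% and 50.4%, with 16 of 20 lower. Its WT levels declined along the gene, from between 75% and 93.2% up to 6215 bp to between 2.70% and 54.5% beyond. The CpG at 6412 and 6413 bp was near unmethylated on both strands, at 2.70% and 4% in WT against 9.52% and 0% in I-PpoI. The 7 cytosines at 7880 to 7950 bp averaged 92.6% and 81.5%.

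Mpo held 8 of the 17 called cytosines. The largest difference lay at chr11:87793148, -636 bp from the Mpo start and inside the lncRNA gene Gm34064, where 67.6% of 34 WT reads (50.8 to 80.9) and 8.33% of 36 I-PpoI reads (2.87 to 21.8) were methylated (-59.3 points, with a 95% interval from -73.6 to -37.8 by Newcombe's method; adjusted p = 0.000156 in Fisher's exact test). The next, at chr11:87801130, chr11:87801114 and chr11:87801103, were on the reverse strand 7319 to 7346 bp into the gene. They stood at 90.3%, 90.2% and 92.3% in WT and at 41.9%, 43.8% and 48.3% in I-PpoI, with coverages of 52 to 62 and 29 to 32 reads. Cytosines this close can lie on the same sequenced fragments.

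Ctsg encodes cathepsin G, a serine protease of azurophil granules. Its 17 shared cytosines lay together inside the gene, 1577 to 1883 bp from the start (chr14:56100691-56100997). They ran from 58.7% to 100% in WT (median 81.4%) and from 21.7% to 100% in I-PpoI (median 65.4%). The mean was 81.1% against 59.8%, a difference of -21.3 ± 18.9 points (SD over 17 cytosines; CMH chi-square test, adjusted p = 3.2e-20), and 15 of 17 were lower. The strands were unlike in size: 9 reverse cytosines averaged 82.8% and 50.7%, and 8 forward ones 79.2% and 70.1%. Both called cytosines were on the reverse strand, chr14:56100782 (87.8% of 164 reads and 48.3% of 58 reads) and chr14:56100862 (75.5% of 53 and 24% of 25).

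Camp encodes cathelicidin, the precursor of an antimicrobial peptide of specific granules. Its 6 cytosines lay 1410 to 1488 bp from the start (chr9:109847968-109848046), in the WT range 86.7% to 100% and the I-PpoI range 46.7% to 100%. The mean was 92.6% and 66.2%, a difference of -26.4 ± 25.3 points (SD over the cytosines; CMH chi-square test over all genes, adjusted p = 2.5e-08). The 3 reverse cytosines were at 93.3%, 86.7% and 86.7% in WT and at 46.7%, 50% and 46.7% in I-PpoI, on 15 to 16 I-PpoI reads. Of the 3 forward ones, chr9:109847968 was called lower, from 100% of 37 reads to 53.8% of 26. The cytosine at 1447 bp was at 100% in both libraries, and that at 1440 bp at 88.9% and 100%. The lower level was thus carried by 4 of 6 cytosines.

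Mmp8 encodes neutrophil collagenase, a specific granule metalloprotease. Its 5 cytosines lay 1957 to 2046 bp from the start (chr9:7560386-7560475), also inside the lncRNA gene Gm31751. In order along the gene they were at 81%, 85.7%, 70.5%, 100% and 90.7% in WT. In I-PpoI they were at 31%, 44.8%, 21.1%, 100% and 57.9%, so 4 were lower and 1 was fully methylated in both. The fully methylated cytosine, at 2045 bp, and the last of the 5, at 2046 bp, are on opposite strands of the same CpG. The mean was 85.6% and 51%, a difference of -34.6 ± 20.6 points (SD over the cytosines; CMH chi-square test over all genes, adjusted p = 5.2e-12). Pooled reads were 193 and 107. The first of the 5 was called on its own (-49.9 points, interval -66.4 to -26.8, with an adjusted p = 0.00717 by Fisher's exact test).

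**Figure D3:**
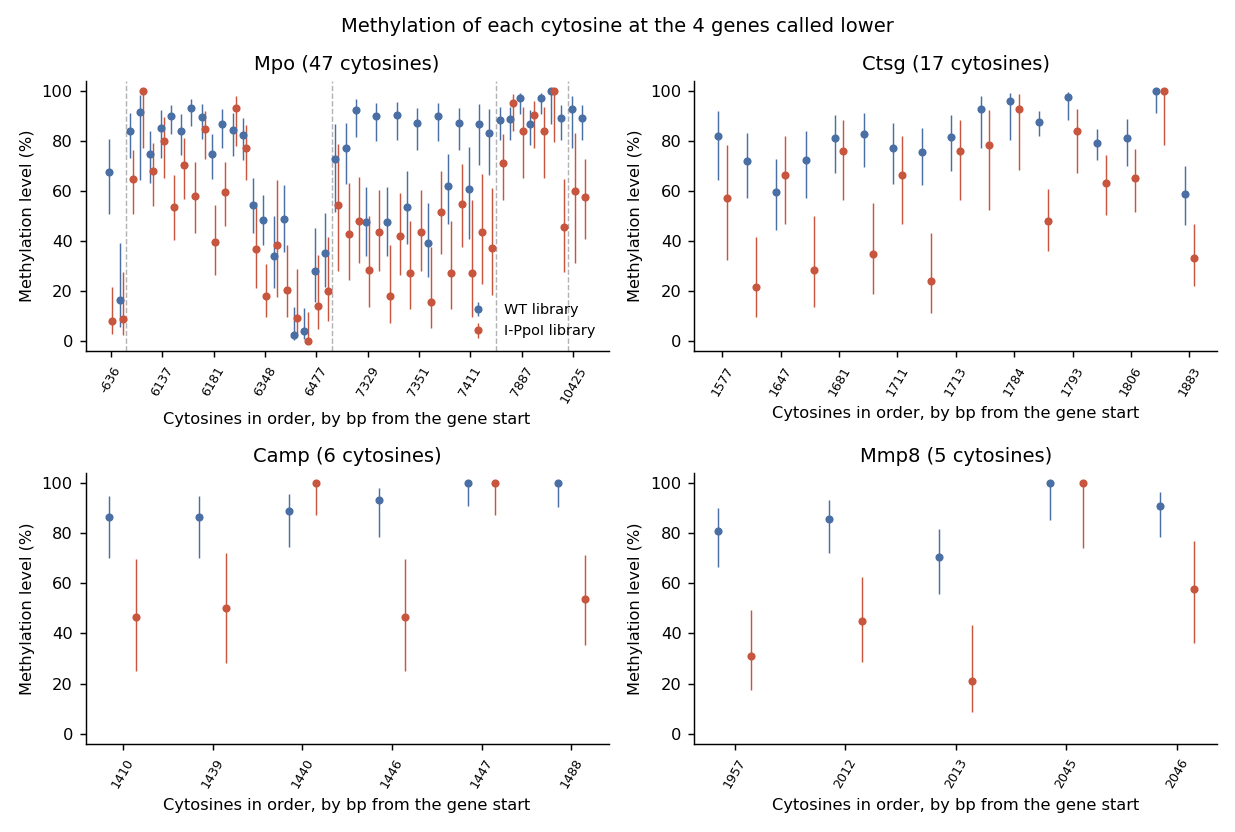
Methylation level (%) of every shared cytosine at Mpo, Ctsg, Camp and Mmp8 in order along the gene, labelled in bp from the gene start and not spaced to scale, with 95% Wilson intervals; dashed lines mark gaps of over 300 bp. In Camp and Mmp8, 4 cytosines of each gene are lower in I-PpoI while others are at 100% there.

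The calls of Camp and Mmp8 rested on 6 and 5 cytosines. A scaled form of the test divided the CMH chi-square statistic by the variation among a region's cytosines, where this exceeded sampling error. The quotient was read against an F distribution, which asks more of regions with few cytosines. Its degrees of freedom were the number of cytosines minus 1, leaving out those fully methylated or fully unmethylated in both libraries. By this scaled chi-square form, which called 0.742% of all regions lower, Mpo (adjusted p = 3.2e-11 over all genes) and Ctsg (adjusted p = 0.000172) were called, and Camp (adjusted p = 0.113) and Mmp8 (adjusted p = 0.0223) were not. For Mmp8 the statistic itself was not reduced. On forward cytosines alone Ctsg differed by -9.12 points, and with 10 kb flanks Camp differed by -9.59 points, both short of the 10 points asked.

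Elane and Prtn3, the azurophil serine protease genes of neutrophil elastase and proteinase 3, lie side by side on chromosome 10, and 56 cytosines fall within 5 kb of both. Prtn3 had 71 shared cytosines, of which 64 lay inside the gene. They ran from 0% to 100% in both libraries, with medians of 20.6% in WT and 17.6% in I-PpoI, and 46 were lower and 19 higher. The mean was 33.5% and 30.2% (-3.26 ± 8.51 points; SD over 71 cytosines). Prtn3 started from a lower level than the 4 genes called, with means of 8.28% in WT at 1316 to 1609 bp, 19.2% at 2084 to 2446 bp and 63.8% at 2827 to 3254 bp. These stretches differed by -1.80, -3.96 and -2.82 points. Its most deeply read cytosine, chr10:79881865, was at 26.9% of 171 reads in WT and 24.4% of 172 in I-PpoI.

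Of the 88 cytosines of the Elane region 1 lay inside the gene, so the region says little of Elane itself. That cytosine, 554 bp from the start, was methylated in 25% of 12 WT reads and 0% of 14 I-PpoI reads. Another 55 lay before the gene, in or near Prtn3, and 32 lay in Cfd, the complement factor D gene that follows. The region averaged 57.8% and 53.3% (-4.55 ± 11.2 points; SD over 88 cytosines). The Cfd stretch averaged 88.5% and 82.4% and held the one called cytosine of the region, chr10:79892452, at 91.3% of 46 reads and 36.4% of 22.

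Ngp, which encodes a cathelicidin-related granule protein, showed stretches of opposite sign. The 6 forward cytosines from -20 to 271 bp (chr9:110419788-110420079), which span the gene start, were higher in I-PpoI at 6 of 6. In order they were at 57.1%, 60%, 66.7%, 75%, 76.2% and 66.7% in WT and at 76.2%, 89.5%, 81%, 95%, 85.7% and 76.2% in I-PpoI, on 19 to 21 reads per library. The 7 cytosines over 4 kb before the start leaned the other way, with 5 lower and 2 higher. The farther 4 had means of 93.1% and 82.8%, and the other 3 of 25.2% and 4.76%. The whole region averaged 65.4% and 65.3% (CMH chi-square test, adjusted p = 0.782) and no single cytosine was called. The most deeply read, chr9:110415092, was at 100% of 35 reads and 88.2% of 17. With 1 kb flanks, which keep the gene start alone, Ngp was called higher (17 points, CMH chi-square test, adjusted p = 0.00566 over all genes). These 6 forward cytosines, on 19 to 21 reads each, can lie on the same sequenced fragments, which the test counts as independent.

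Ltf encodes lactoferrin, the iron-binding protein of specific granules. Its 64 cytosines were highly methylated, with medians of 96% in WT and 94.5% in I-PpoI, means of 84.6% and 82.3%, and a difference of -2.28 ± 7.36 points (SD over 64 cytosines). The 8 stretches of Ltf differed by between -5.36 and 0.749 points. One cytosine was called, chr9:111040438, 21146 bp from the start, at 97.6% of 85 reads and 71.8% of 71. The 21 cytosines of that stretch together had means of 97% and 95.7%.

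Lcn2 encodes lipocalin 2, which binds bacterial siderophores. Its region joined unlike stretches: 79 cytosines after the gene, in 1110008P14Rik, averaged 3.61% and 3.90%, and 14 inside Lcn2, at 578 to 1063 bp (chr2:32386676-32387161), averaged 86.8% and 77.0%. Inside the gene 11 of 14 were lower, with a mean difference of -9.85 ± 12.5 points (SD over 14 cytosines), and chr2:32387007 was called, at 85% of 60 reads and 40% of 30. The difference of -1.24 points for the region therefore averages a methylated stretch with one that was near unmethylated in both libraries.

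Mmp9 encodes gelatinase B, the metalloprotease that names the gelatinase granules. Its region had the most cytosines, 203, of which 143 lay in the gene, with means of 33.1% and 30.8% (-2.30 ± 12.4 points; SD over 203 cytosines). Distances here count from the end of lower coordinate, since no gene start was taken for it. The stretch at 6791 to 6921 bp (chr2:164947117-164947247) averaged 75.2% and 56.4% over 7 cytosines and held both called ones, chr2:164947117 (66.2% of 71 reads and 17.1% of 41) and chr2:164947134 (64.8% of 71 and 22.7% of 44). At -4136 to -4020 bp, before the gene, 4 of 4 cytosines were lower (53.1% and 33.9%). At 11077 to 11431 bp 4 cytosines averaged 77.5% and 90.4%, with 3 of them higher. The 20 cytosines at -1482 to -1259 bp were unmethylated in both libraries, at 1.46% and 0.585%.

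**Figure D4:**
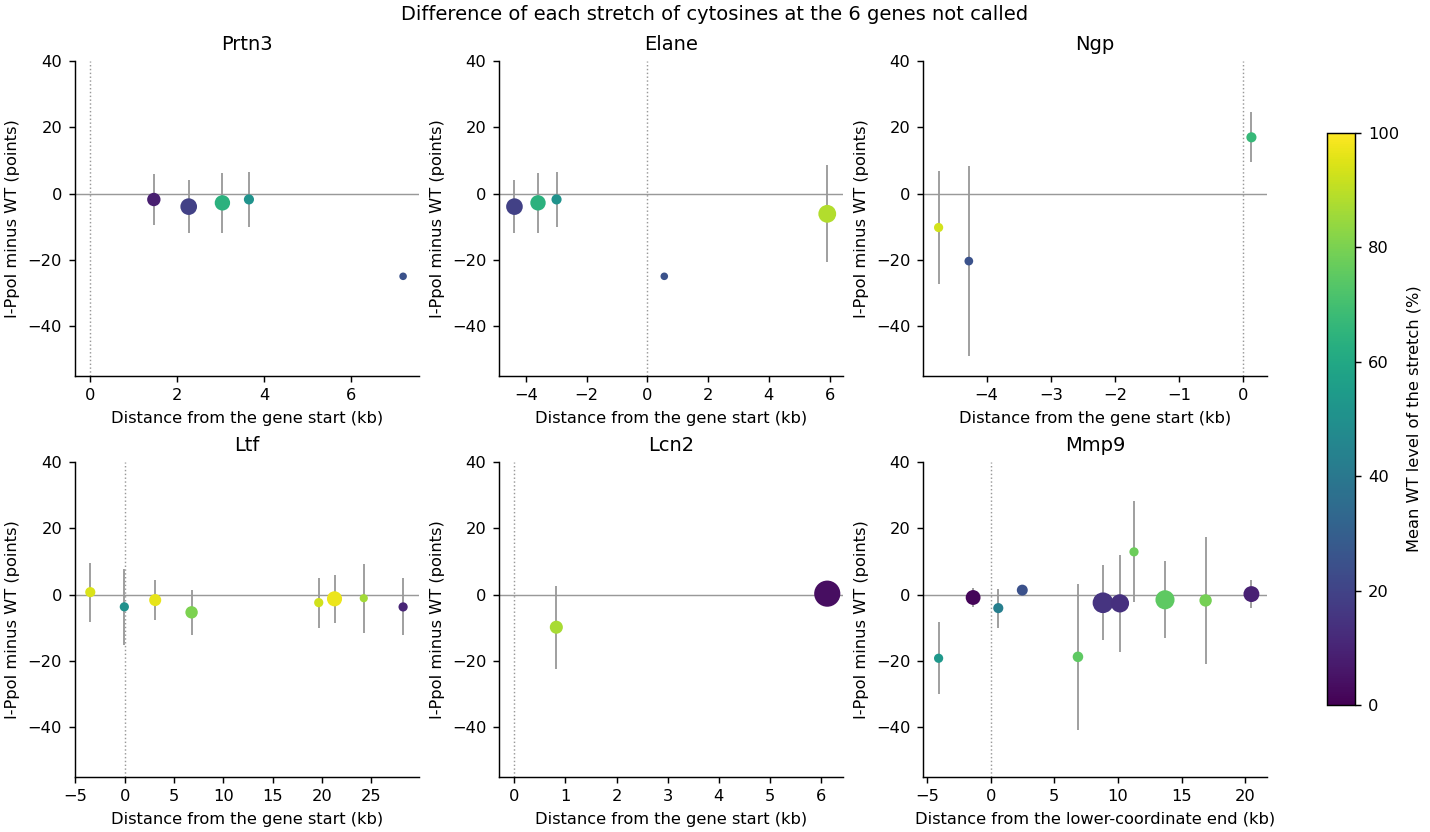
Mean difference (I-PpoI minus WT, percentage points) of each stretch of cytosines against its distance in kb from the gene start (for Mmp9, from its end of lower coordinate) at the 6 genes that were not called; bars are the SD over cytosines, point size grows with their number, and colour gives the mean WT level. The lowest stretches are the single Elane cytosine at -25 points, shown at Prtn3 too, Ngp at -20.4 points and Mmp9 at -19.2 and -18.8 points, and the highest are Ngp at 17 points and Mmp9 at 12.9 points.

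Calls were found in both main granule classes: 2 of 4 azurophil genes, 2 of 5 specific granule genes and none of 1 gelatinase gene were called. The share of all gene regions called lower was 2.6%. Median differences were -12.9 points for azurophil and -2.28 points for specific granule genes. The azurophil median falls between Ctsg at -21.3 and Elane at -4.55 points, with no gene near it. Elane and Prtn3 share 56 cytosines, so their regions are not separate members of the class. Azurophil genes ran from -22.2 to -3.26 points and specific granule genes from -34.6 to -0.0325, so the classes overlapped.

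The read depth of the same regions was lower in I-PpoI, and most so in the 4 called genes. The median ratio of I-PpoI to WT reads per cytosine was 0.5 at Mmp8, 0.524 at Mpo, 0.535 at Ctsg and 0.609 at Camp, and between 0.667 and 0.928 at the other 6. Over all gene regions the median ratio was 0.829, and over those at 50% or more in WT 0.694. Regions at 50% or more in WT with a ratio under 0.65, a bound chosen after the values were seen, were called lower in 6.87% of 6741 cases. All 4 called members were called with reads thinned to equal depth. Thinning evens the read numbers but leaves the levels about as they were, with Mpo at -21.6 points against -22.2. It therefore cannot show whether the reads missing in I-PpoI shifted the level, and the part of coverage in the difference was not tested.

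**Figure D5:**
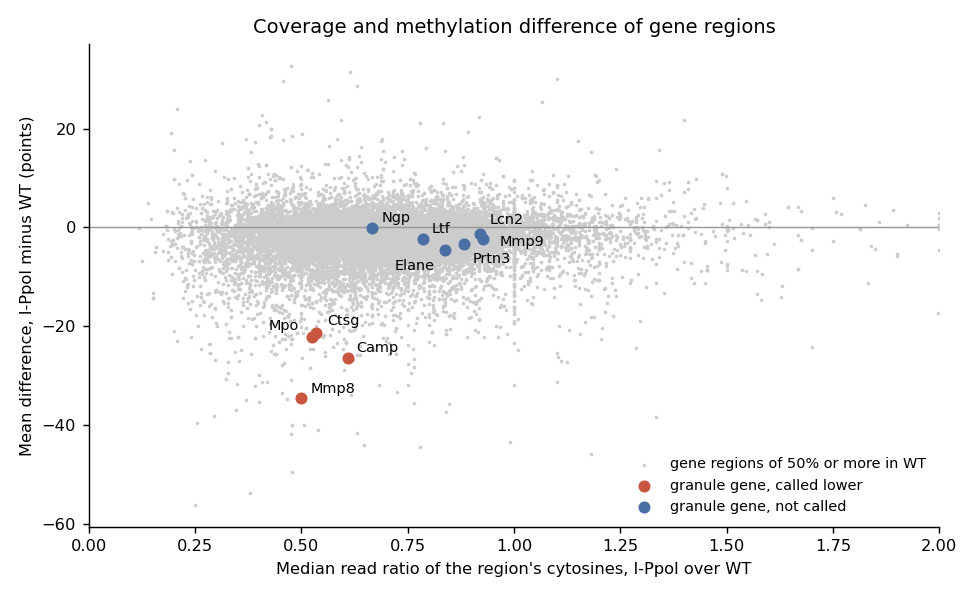
Mean difference (percentage points) against the median read ratio of a region's cytosines, I-PpoI over WT; grey points are gene regions at 50% or more in WT with a ratio up to 2, red points the granule genes called lower and blue points the other 6 (of which Prtn3, Lcn2 and Mmp9 start below 50%). The 4 called genes lie at ratios of 0.5 to 0.609.

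Cytosines listed in 1 library alone are outside every difference above. At the members 170 of 721 WT cytosines (23.6%) were listed in WT alone, against 14.8% of all WT cytosines on the autosomes and X. In I-PpoI 14 of 565 (2.48%) were listed there alone, against 3.21% of all. Counted by region, those of WT alone numbered 58 at Elane, 37 at Mmp9, 30 at Ltf, 23 at Prtn3, 17 at Mpo and 14 at Lcn2. Ngp had 10 and Mmp8 4, and there were none at Ctsg and Camp. Cytosines within 5 kb of both Elane and Prtn3 are counted at each. The mean WT level of those listed in WT alone was 85.6% at Mpo, 97.9% at Mmp8, 87.1% at Elane and 14.3% at Lcn2.

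Other genes of neutrophil function were described by the same rule. Of 30 genes of granules, the oxidase, lipid mediators and extracellular traps, 24 had at least 3 shared cytosines. Of these 1 was called lower and none higher, near the 2.6% of all regions called lower. It was Lyz2, the lysozyme gene of myeloid cells, from 83.9% to 73.5% over 12 cytosines (-10.4 points), and it was not called in the scaled test. Padi4, whose product citrullinates histones in extracellular traps, was at 59.5% and 52.6%, and Bpi, which encodes a bactericidal permeability protein, at 79.7% and 76.4%, both under the 10 points asked. Closer to that bound, and not called, were Hp at -9.89 and Ncf4 at -9.06 points. In this list 23 of 24 were below 0, where 81.1% of all regions were, with a median of -3.46 points. S100a8, S100a9, Serpinb1a, Retnlg, Cst7 and Ear2 had too few cytosines.

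Among granulocyte regulators and receptors 15 of 18 genes were tested, 2 were called lower and none higher. The shares of all regions called were 2.6% lower and 0.222% higher. Cebpe, the C/EBP factor of specific granule formation, went from 45.9% to 29.8% over 49 cytosines, and Cxcr2, the chemokine receptor of neutrophils, from 63.7% to 40.7% over 11. Both were also called in the scaled test, which called 0.742% of all regions lower. The list median was -2.01 points, and 15 of 15 were below 0, against the same 81.1%.

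Marker genes of other blood cells gave no call by the same rule in either direction: 0 of 10 T cell, 0 of 9 B cell, 0 of 7 monocyte, 0 of 5 NK cell and 0 of 7 erythroid and platelet regions. Over all regions 2.6% were called lower, so counts of 0 in lists of this size are near the background. Their medians were -0.913, 0.0508, -1.39, -1.91 and -2.63 points. Median WT levels were 48.8%, 59.4%, 56.7%, 75.7% and 46.9%, against 68.4% for the 10 granule genes. Levels ran from 5.24% to 97% in WT and from 5.64% to 97.1% in I-PpoI. Cell counts were not used here, and the part of cell mix in the differences at granule genes was not tested.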

How the data were processed

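Per the labels' protocols, RRBS libraries of peripheral blood DNA, 1 WT and 1 I-PpoI, were prepared with the Zymo-Seq RRBS Library Kit. The submitters' processing notes name methylKit. Neither aligner, genome build nor duplicate removal is given in the sources used here. The coverage column holds the count of reads on a CpG cytosine, per the file headers. Its companions hold the percent of those reads with C or T, as the authors deposited them. Methylated reads, coverage times percent C, were whole within 1e-06 at 100% of cytosines. The libraries listed 3569384 (WT) and 3141563 (I-PpoI) cytosines with median coverage of 53 and 49 reads, none under 10.

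Genes came from a RefSeq table of GRCm38.p6. Of 428637 listed cytosines in RefSeq promoter windows, 99.9% lay on a CG of the right strand in that build. Of 100 list symbols, 100 were matched. Gene models with exons were not used here.

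Cytosines were tested by two-sided Fisher's exact test and gene regions (gene with 5 kb flanks, at least 3 cytosines) by a Cochran-Mantel-Haenszel test with cytosines as strata, with Benjamini-Hochberg adjustment over all cytosines or all genes (Python 3.11.15, scipy 1.17.1, numba 0.67.0). The scaled test divides the statistic by the spread between cytosines, where that is above 1, and takes p from an F distribution. Its degrees of freedom are 1 and the number of cytosines minus 1. Cytosines fully methylated or fully unmethylated in both libraries are not counted in that number. Intervals are 95% Wilson (levels) and Newcombe (differences) and cover counting error alone. The tests were tested on simulated data. Reads there were drawn independently for each cytosine, so dependence between cytosines on the same reads was not covered. Named cytosines are the called ones, up to the 4 with the largest difference, or the most deeply read where none was called. From other lists up to 4 called genes were named, and further genes named there were chosen after their values were seen. Members, lists and rules were chosen with earlier results of these data known. Alternatives changed coverage, strand, depth, flank, test, weights and thresholds.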

Additional observations from a re-analysis of the deposited data

How the results depend on the processing

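Mpo was called under each alternative of test, weights, coverage, strand, depth and flank, with differences between -25.5 and -19.2 points. Ctsg lost its call on the forward strand alone (range -32.1 to -9.12 points), Camp in the scaled test and with 10 kb flanks (-41.1 to -9.59) and Mmp8 in the scaled test (-39.1 to -30.3), over the alternatives that left at least 3 cytosines. Elane, Prtn3, Ltf, Lcn2 and Mmp9 were called under none of theirs and kept their sign. Several alternatives left the cytosines of a gene as they were and could not change its value.

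Of 10 member regions 4 were called. The count went to 2 with the scaled test, which left Mpo and Ctsg, and to 2 at a coverage minimum of 30 reads, where 7 members had enough cytosines. It was 3 at a coverage minimum of 20 reads, on either strand alone and with 10 kb flanks. A coverage minimum of 20 and the reverse strand alone left 9 members. With 1 kb flanks the count was 5, of which 4 were lower and 1, Ngp, was higher. The count of 17 called cytosines went to 9 on the forward strand alone, 8 on the reverse strand alone and 10 with reads thinned to equal depth. The first of these settings test fewer cytosines, and the last fewer reads. With pooled reads, Fisher's exact test called 2431 of 35571 regions in place of 1004, with 4 members in both. The scaled test called 272, and protein-coding genes alone gave 246 of 18500. A minimum of 5 points gave 3058. The member median ranged from -9.85 points (gene alone, or 1 kb flanks, over 9 members without Elane) to -2.64 points (forward strand alone, over 10).

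Ngp changed sign: 0.842 points with pooled reads, by either test, 14.5 points at a coverage minimum of 20, 6.99 points on the forward strand alone, 16.6 points without flanks and 17 points with 1 kb flanks. The cause was not tested. Leaving out cytosines with unlike strands, an alternative chosen after seeing the data, gave 17 cytosines, 4 regions and a median of -4.42 points.

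No paired analysis was possible because each group had 1 library. For the same reason no library was left out in turn. Depth limits single cytosines: 11 to 29 I-PpoI reads lie behind the values of Camp and Mmp8.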
